A study of Mus musculus with 15 samples.

Results

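The comparison set small intestinal crypts of mice given antibodies against Notch1, Notch2 and Lrp6 (N1N2_Lrp6, here the combined group) against crypts of mice given a control IgG antibody (Control), with 5 arrays in each group, 10 of the 15 arrays of the series. The members were chosen by their labels alone. The other 5 arrays, of mice given the Notch1 and Notch2 antibodies only (N1N2, here the Notch-only group), stood beside this comparison to show which departures from Control were present under both treatments. Mice of all treated groups were 6 to 8 weeks old and received 1 dose, and crypts were taken 24 h later. The labels give 1 mg/mL for the Notch antibodies, a concentration from which no amount per mouse follows, and 30 mg/kg for the Lrp6 antibody. The series design calls the arrays biological replicates and the Control mice untreated, whereas the Control labels name the IgG antibody. Strain, sex and whether an array holds 1 animal or a pool are not given in the sources used here, so the p-values measure the spread between these arrays.

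Crypts hold the stem cells of the intestinal epithelium and their dividing daughters. Notch signalling between neighbouring crypt cells keeps daughters on the absorptive path: the cleaved receptor acts with the DNA-binding protein RBPJ to switch on Hes1, and Hes1 represses Atoh1, which starts the secretory programme of goblet, Paneth, enteroendocrine and tuft cells. Lrp6 is a co-receptor for Wnt ligands, and Wnt signalling sustains crypt base stem cells, which carry Lgr5 and Ascl2.

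Each array measured crypt RNA in the red channel against a shared reference, green-labelled RNA from mouse, and every level here is log2 of crypt over reference. Levels of different genes come from different probes and are not set against each other. A gene was called when its adjusted p was under 0.05 in 1 limma fit of all 15 arrays and 23939 features, of which 16058 carried a gene name. Spots well above background in red made up 71.1% to 79.8% on the Control arrays, 57.2% to 66.9% on combined arrays 1 to 4 and 73.6% on combined array 5. The correlation between arrays of 1 group was between 0.9722 and 0.99304 in Control and between 0.917 and 0.98881 in the combined group. The Control arrays lay on slides 1 and 2, combined arrays 1 to 4 on slide 5 and combined array 5 on slide 6, so slide and treatment cannot be told apart in this comparison. The 12 tested crypt epithelium genes had a mean of 5.27 ± 0.06 (SD, n = 5) in Control and 5.17 ± 0.27 (SD, n = 5) in the combined group. Only genes detected in some group were tested, so their detection does not check the labelled tissue.

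With all antibodies together few genes were called against Control. On the higher side these included Sftpc, a lung surfactant gene with the largest change of all, and early secretory and enteroendocrine genes. On the lower side they included some iron handling, complement, mesothelial and stromal genes. The fit called 90 features against Control, 0.376% of those tested, with 53 higher (0.221%) and 37 lower (0.155%). The Notch-only group, fitted against the same Control arrays, had 2806 calls (11.7%). Of the 90 features, 83 carried a name and 37 differed by at least 2-fold. In 84 no combined array overlapped any Control array, against 2.58% of all features (1.51% higher and 1.07% lower). The calls rest on the same values, so this separation is a description. Without adjustment 3114 features (13%) had a p under 0.05 in the limma fit, against 6272 (26.2%) in the Notch-only group. The median absolute log2 change over all features was 0.10 in the combined group and 0.13 in the Notch-only group. On these measures the treated groups lay closer together than in the counts of calls. The fit took 1 shared spread per feature, so the standard error was alike by construction in both contrasts against Control (median 0.107 on the log2 scale). Within groups the median SD of a feature was 0.135 in Control, 0.152 in the Notch-only group and 0.1875 in the combined group.

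Most of the departures from Control under the combined treatment were also departures under the Notch antibodies alone. Of the 53 higher features 47 (88.7%) were called higher in both treated groups, and of the 37 lower features 29 (78.4%) were called lower in both. No feature was called in opposite directions. These 76 features were 2.71% of the 2806 called in the Notch-only group. A further 1856 (66.1%) differed between the treated groups in the direction of Control and were not called in the combined group, and 874 fell in neither class. Both contrasts use the same Control arrays, so these counts describe the calls and are no independent evidence. The median log2 change of the 1573 features called higher in the Notch-only group was 0.59 there and 0.11 in the combined group. For the 1233 called lower it was -0.48 there and -0.01 in the combined group.

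The features that stayed higher and those that stayed lower differed in how the combined group compared with the Notch-only group. Of the 47 that stayed higher, 45 had a smaller change in the combined group than in the Notch-only group, and 28 were called lower in the combined group than in the Notch-only group (7.26% of all features were called in that direction). Their median log2 change was 1.56 in the Notch-only group and 0.92 in the combined group. Of the 29 that stayed lower, 10 had a smaller change in the combined group, and 1, Rbp7, was called in the direction of Control against the Notch-only group, where 9.44% of all features were called higher. Their median log2 change was -0.85 in the Notch-only group and -0.86 in the combined group. These members were selected on both changes, so the counts and medians are a description, and the shares over all features are no measure for them. Of the features called higher in the Notch-only group, 1034 (65.7%) were called nearer to Control in the combined group and not called against Control. Of those called lower, 822 (66.7%) were. The plot of genes called in both treated groups shows the same gap among the higher genes and near-equal changes among the lower ones.

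**Figure D1:**
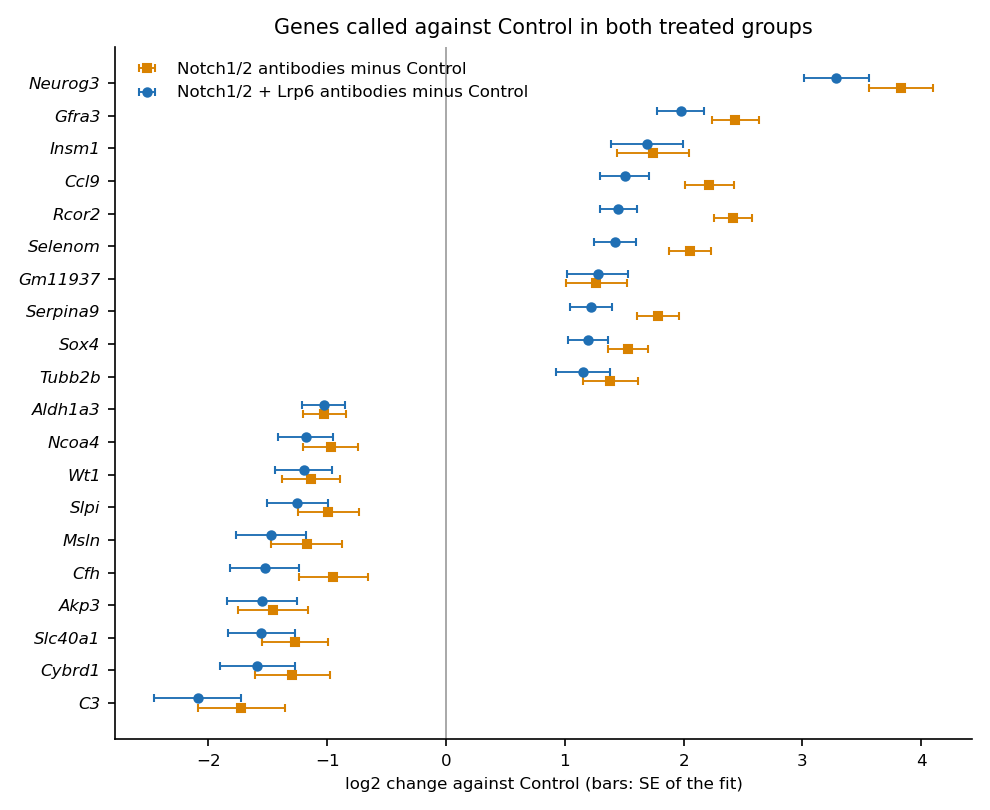
Log2 change against Control (x axis) of the 10 genes higher and the 10 lower in both treated groups with the largest smaller change, with the standard error of the fit as bars, in the Notch-only group (squares) and the combined group (circles). Neurog3 lies at 3.83 and 3.29, while C3 lies at -1.73 and -2.09.

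The calls depended on single arrays. Among the 83 named genes, 22 kept an adjusted p under 0.05 in each of the 10 fits that left out 1 Control or combined array: Neurog3, Gfra3, Rcor2, Selenom, Ccl9, Serpina9, Sox4, Kit, Hrh3, Gm14207, Creb3l4, Spdef, Rasa4, Etv5, Syt13, Dll1, Sftpc and Sftpa1 among the higher, and C1s1, Foxq1, Pcdh8 and Nr2e3 among the lower. Of these, Sftpa1 entered the fit through the combined arrays alone, and Pcdh8 and Nr2e3 through the Control arrays alone. Their calls, and how well those held, are a description. Leaving out combined array 5 lost none of the 83 calls, leaving out Control array 1 lost 16, and leaving out any other array lost between 46 and 59. All features called numbered 348 without combined array 5, 143 without Control array 1, and 26 to 52 without any 1 of the others. In what follows, a gene said to hold in n of 10 fits is one whose call was kept in n of these.

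Among genes called in both treated groups, Neurog3 had the largest change. It encodes the transcription factor that commits crypt cells to the enteroendocrine fate. Its log2 level was 2.92, 2.99, 1.99, 2.84 and 3.22 on Control arrays 1 to 5 and 6.62, 6.69, 5.69, 6.09 and 5.31 on combined arrays 1 to 5. All combined arrays lay above all Control arrays, and the level was 9.76-fold higher (log2 change 3.29 ± 0.27 SE, adjusted p = 3.01e-05). In the Notch-only group the change was 3.83 ± 0.27, and the treated groups were not called different (-0.54 ± 0.27, adjusted p = 0.198). The 250 bases before its start site are shown for that reason.

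Neurog3 promoter, chr10:62132840-62133089, plus strand, RefSeq GRCm38.p6: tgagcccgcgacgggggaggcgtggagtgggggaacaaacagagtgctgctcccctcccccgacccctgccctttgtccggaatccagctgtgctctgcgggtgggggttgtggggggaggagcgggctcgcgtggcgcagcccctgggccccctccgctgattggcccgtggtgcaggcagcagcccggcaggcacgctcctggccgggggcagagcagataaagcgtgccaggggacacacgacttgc

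Gfra3, a receptor subunit for the neurotrophic factor artemin, rose with it. It was at 2.16, 2.21, 1.88, 2.24 and 2.56 on the Control arrays and at 4.46, 4.27, 4.41, 4.37 and 3.43 on the combined arrays. Combined array 5 stood below the other treated arrays and still above every Control array. The log2 change was 1.98 ± 0.20 (adjusted p = 0.000342), against 2.44 ± 0.20 in the Notch-only group. Rcor2, a corepressor that partners chromatin-modifying enzymes, was at -3.68, -3.68, -3.74, -3.64 and -3.61 in Control and at -1.82, -2.08, -2.08, -2.39 and -2.73 in the combined group. The Control arrays of Rcor2 were nearly identical and the combined arrays did not reach them. Its log2 change was 1.45 ± 0.16 (adjusted p = 0.000716), and it was lower than in the Notch-only group by a called difference (-0.97 ± 0.16, adjusted p = 0.00133).

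The list of enteroendocrine transcription factors had 17 tested members. In the combined group 6 were called higher (Neurog3, Insm1, Rcor2, Sox4, Pax4 and Neurod2), against 0.221% of all features, and none lower. The list median was 0.27 against 0.01 over all features. In the Notch-only group 9 were called higher, where 6.57% of all features were, and the median was 0.67. Insm1, a zinc-finger factor of early endocrine cells, rose by 1.69 ± 0.30 on the log2 scale (adjusted p = 0.0266) and by 1.74 ± 0.30 in the Notch-only group. Pax4, a homeobox factor of endocrine subtype choice, rose by 1.14 ± 0.20 (adjusted p = 0.0266) and by 1.96 ± 0.20 in the Notch-only group. For both genes the call held in 3 of 10 fits, those without Control array 1, combined array 2 or combined array 5, and the largest adjusted p of the others was 0.0804. Neurod2, a basic helix-loop-helix factor, held in 1 of 10 fits, the one without combined array 5. Rfx6, a winged-helix factor of endocrine cells, was called in the Notch-only group (2.20 ± 0.22) and not in the combined group (0.86 ± 0.22, adjusted p = 0.124), and the treated groups differed (-1.33 ± 0.22, adjusted p = 0.00162).

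The mature products of the same lineage did not pass. None of the 22 enteroendocrine hormones and granule proteins was called in the combined group, with changes from -0.36 to 0.35 and a median of 0.08, and 1, the prohormone convertase gene Pcsk1, was called in the Notch-only group. Chga, the chromogranin of hormone granules, changed by 0.15 ± 0.13 (adjusted p = 0.661). With 0.376% of all features called, a list of this size with none called is near that share, as is each list below of which none was called in the combined group. Outside this list, Syt13 and Cacna1a were called. Syt13, a synaptotagmin, was at -3.51, -3.34, -3.62, -3.47 and -3.31 in Control and at -2.29, -2.45, -2.49, -2.70 and -3.04 in the combined group. The groups did not overlap, and the change was 0.86 ± 0.13 (adjusted p = 0.00721) against 1.56 ± 0.13 in the Notch-only group. Cacna1a, a calcium channel subunit, rose by 1.11 ± 0.19 (adjusted p = 0.0217) and lost the call without Control array 2, 3, 4 or 5 or combined array 3, where the adjusted p reached 0.0708.

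Factors that act earlier, across all secretory cells, were also called. Of the 15 secretory lineage transcription factors tested, 4 were called higher in the combined group (Sox4, Creb3l4, Spdef and Creb3l1), against 0.221% of all features. In the Notch-only group 11 were called higher, against 6.57% of all features. The medians were 0.69 in the combined group and 1.35 in the Notch-only group on the log2 scale. In 14 of the 15 the combined change was above 0, while 11040 of all 23939 features were below 0. The mean of the list was 1.53 ± 0.07 (SD) in Control, 2.67 ± 0.26 in the Notch-only group and 2.13 ± 0.22 in the combined group, with n = 5 in each.

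Spdef, an ETS factor that drives goblet and Paneth maturation, was at 5.29, 5.31, 5.23, 5.46 and 5.48 on the Control arrays and at 6.49, 6.39, 6.49, 6.27 and 5.86 on the combined arrays. The groups were apart, with combined array 5 the closest to Control. The log2 change was 0.95 ± 0.13 (adjusted p = 0.00486), against 1.90 ± 0.13 in the Notch-only group, and the treated groups differed by -0.96 ± 0.13 (adjusted p = 0.000556). Creb3l4, a membrane-bound bZIP factor, showed the same order with 0.95 ± 0.14 (adjusted p = 0.00681) in the combined group and 1.65 ± 0.14 in the Notch-only group. Creb3l1, its paralog, rose by 0.74 ± 0.14 (adjusted p = 0.0412), and its call held in 1 of 10 fits, the one without combined array 5.

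Sox4, an SRY-box factor of secretory progenitors, was at -1.19, -1.32, -1.21, -1.46 and -1.28 in Control and at 0.07, 0.45, 0.08, -0.52 and -0.58 in the combined group. Combined arrays 4 and 5 were lower than arrays 1 to 3 and above all Control arrays. The change was 1.19 ± 0.17 (adjusted p = 0.00492), and the difference from the Notch-only group was not called (-0.33 ± 0.17, adjusted p = 0.21). Atoh1 itself was at 4.02, 4.32, 4.14, 4.56 and 4.33 in Control and at 5.70, 4.73, 5.65, 5.22 and 5.23 in the combined group. Its groups did not overlap, yet the change of 1.03 ± 0.25 did not pass (adjusted p = 0.0947), whereas the Notch-only change of 1.95 ± 0.25 did (adjusted p = 0.000161). The treated groups differed in Atoh1 by -0.92 ± 0.25 (adjusted p = 0.0207). Foxa2, a forkhead factor of secretory cells, likewise missed the threshold in the combined group at 0.99 ± 0.24 (adjusted p = 0.0863).

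The promoters of Hes1, Dll1, Spdef, Creb3l1, Creb3l4 and Sox4 were to be searched for the RBPJ core, TGGGAA on either strand (TTCCCA when read on the other), in the 250 bases before the start site. Of these 6 genes 4 were in the RefSeq table, all but Hes1 and Creb3l1, and 2 held the core, Spdef and Sox4. The core was in 21.6% of all 32851 promoters of this length, so a match is a description and not a bound site. The sequences are shown because these genes stayed higher under both treatments, and capitals mark the core.

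Spdef promoter, chr17:27728952-27729201, minus strand, RefSeq GRCm38.p6: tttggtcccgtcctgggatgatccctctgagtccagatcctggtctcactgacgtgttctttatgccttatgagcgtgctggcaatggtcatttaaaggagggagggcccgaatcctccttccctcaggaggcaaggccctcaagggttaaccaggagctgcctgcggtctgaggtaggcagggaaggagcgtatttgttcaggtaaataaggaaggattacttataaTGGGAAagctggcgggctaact

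Sox4 promoter, chr13:28953700-28953949, minus strand, RefSeq GRCm38.p6: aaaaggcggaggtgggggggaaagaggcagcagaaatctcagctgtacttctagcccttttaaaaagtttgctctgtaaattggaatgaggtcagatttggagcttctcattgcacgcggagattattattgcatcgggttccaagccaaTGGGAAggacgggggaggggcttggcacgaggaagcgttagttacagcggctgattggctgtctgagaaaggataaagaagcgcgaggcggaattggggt

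The core began 22 bases before the start site in Spdef and 100 bases before it in Sox4. The window of Neurog3 printed with that gene, and those of Dll1 and Creb3l4, held no such letters.

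Within the Notch pathway, 1 of 18 tested genes was called against Control in the combined group, where 0.376% of all features were. In the Notch-only group 9 were called, 4 higher and 5 lower, against 6.57% and 5.15% of all features. The called gene was Dll1, a ligand carried by secretory precursors that activates Notch in their neighbours. Dll1 was at 3.31, 3.51, 3.84, 3.57 and 3.58 on the Control arrays and at 4.24, 4.33, 4.61, 4.24 and 4.13 on the combined arrays. All combined arrays exceeded all Control arrays, by 0.75 ± 0.11 on the log2 scale (adjusted p = 0.0067). The Notch-only change was 1.81 ± 0.11, and the treated groups differed by -1.06 ± 0.11 (adjusted p = 0.000246). Dll4, another ligand, changed by 0.43 in the combined group without passing and by 1.38 in the Notch-only group.

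Among direct Notch targets, Hes1 lay between the 2 other groups, and Nrarp and Dtx1 lay nearer to the Notch-only level. Values of the other targets on the list are not given here. Hes1 was at -0.27, -0.12, -0.31, 0.01 and 0.33 in Control and at -0.07, -0.79, -0.41, -0.46 and -0.28 in the combined group, so the groups overlapped. Its change of -0.33 ± 0.13 did not pass (adjusted p = 0.312), the Notch-only change of -0.87 ± 0.13 did (adjusted p = 0.000655), and the treated groups differed by 0.54 ± 0.13 (adjusted p = 0.0113). Nrarp, a feedback inhibitor of the Notch complex, was at 1.32, 1.73, 1.40, 1.86 and 1.80 in Control and at 1.21, 0.62, 0.85, 0.96 and 1.32 in the combined group, with combined array 5 at the level of Control array 1. Its change of -0.63 ± 0.14 missed the threshold (adjusted p = 0.067), and the difference from the Notch-only group was not called (0.26 ± 0.14, adjusted p = 0.228). Dtx1, a Notch-associated ubiquitin ligase, changed by -0.80 ± 0.20 (adjusted p = 0.105) in the combined group and by -0.94 ± 0.20 (adjusted p = 0.0075) in the Notch-only group. The receptors Notch1 (0.23 ± 0.16) and Notch2 (-0.29 ± 0.13) did not pass in the combined group.

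Kit, the receptor of stem cell factor and a marker of secretory cells near the crypt base, was at 2.05, 2.16, 2.24, 2.57 and 2.53 in Control and at 3.59, 3.24, 3.97, 3.22 and 3.22 in the combined group. The groups were apart by 1.14 ± 0.18 on the log2 scale (adjusted p = 0.0117), and the Notch-only change was 2.41 ± 0.18. Ccl9, a chemokine, rose by 1.50 ± 0.21 (adjusted p = 0.00486). Selenom, a selenoprotein of the endoplasmic reticulum, rose by 1.42 ± 0.17 (adjusted p = 0.00265), with combined array 5 at 1.29 and the other 4 between 1.95 and 2.22. Serpina9, a serine protease inhibitor, rose by 1.22 ± 0.18 (adjusted p = 0.00535), and Hrh3, a histamine receptor, by 1.09 ± 0.15 (adjusted p = 0.00492). All of these were called lower in the combined than in the Notch-only group.

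Etv5, an ETS factor, was one of the higher genes with the same change in both treated groups, 0.88 ± 0.12 (adjusted p = 0.00486) in the combined group and 0.87 ± 0.12 in the Notch-only group. Its level was -3.36, -3.33, -3.54, -3.41 and -3.33 in Control and -2.16, -2.36, -2.46, -2.68 and -2.91 in the combined group, without overlap. Gm11937 had a like pair of changes, 1.28 ± 0.26 (adjusted p = 0.0461) and 1.27 ± 0.26, and its call held in 2 of 10 fits, those without combined array 1 or combined array 5. Tubb2b, a beta-tubulin, rose by 1.15 ± 0.23 (adjusted p = 0.0461) and held only without combined array 4 or combined array 5, with an adjusted p of up to 0.129 otherwise. For Cbfa2t3, a transcriptional corepressor that rose by 1.09 ± 0.19, another probe of the gene had the opposite sign.

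Goblet cell products did not pass in the combined group. None of the 22 tested was called. In the Notch-only group 11 were called higher, where 6.57% of all features were. The median was 0.31 in the combined group and 0.77 in the Notch-only group. Fut2, a fucosyltransferase of mucin glycans, changed by 0.16 ± 0.27 in the combined group and by 1.88 ± 0.27 in the Notch-only group, and the treated groups differed by -1.72 ± 0.27 (adjusted p = 0.00112). Ern2, the goblet form of the Ire1 stress sensor, changed by 0.54 ± 0.23 (adjusted p = 0.33), against 1.81 ± 0.23. Muc2, the main mucin, passed in neither group (0.16 ± 0.23 and 0.41 ± 0.23). None of 12 Paneth cell products and none of 14 tuft cell genes was called in the combined group, with medians of -0.02 and 0.12, and Lyz1 (-0.38 ± 0.28) and Dclk1 (0.11 ± 0.13) were among them. For Dclk1 another probe had the opposite sign.

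**Figure D2:**
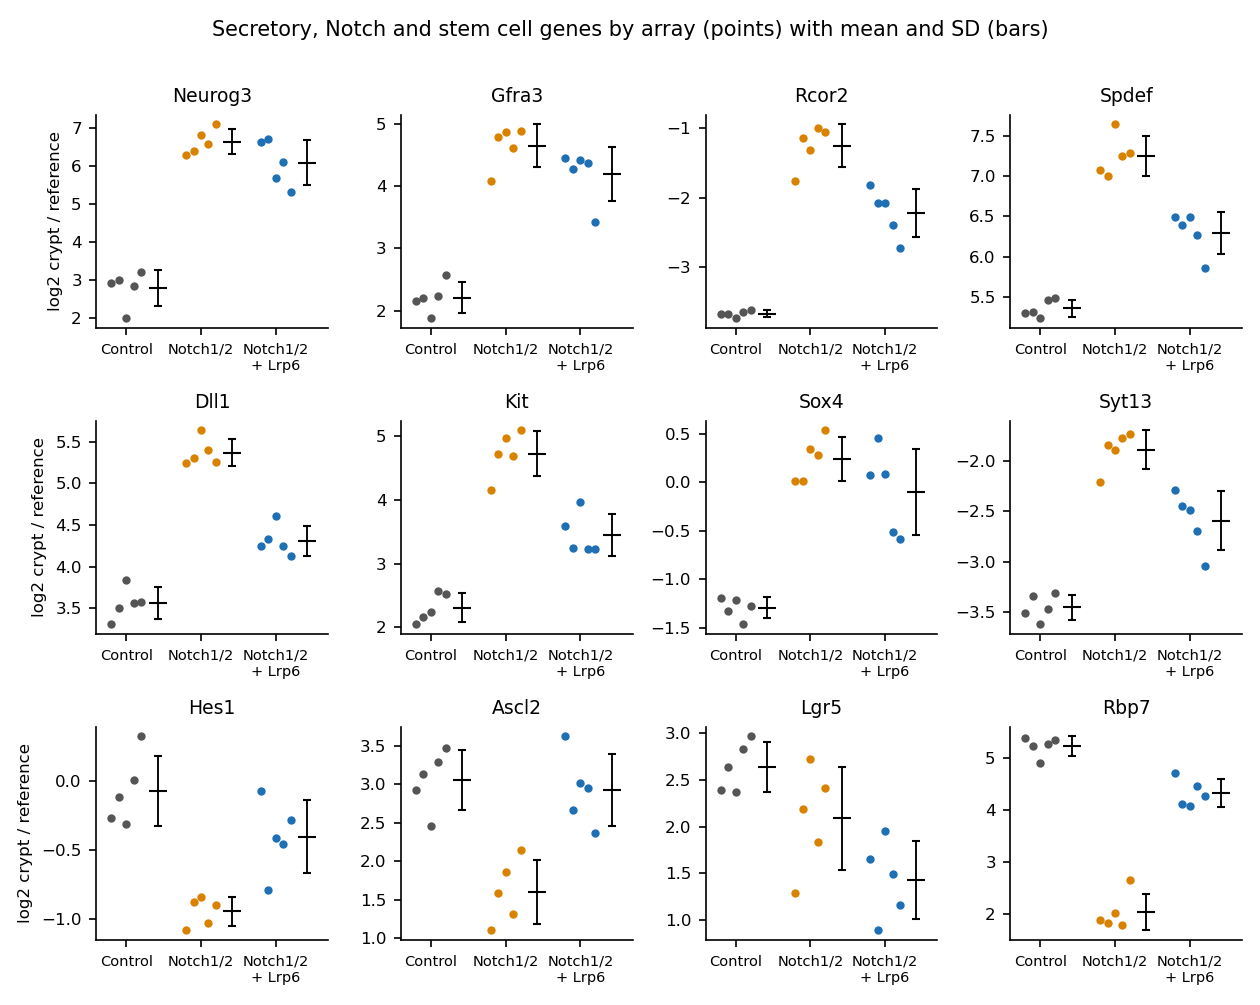
Log2 of crypt over reference (y axis) for 12 genes on each array of the 3 groups, with the group mean and SD as a bar beside the points. In the combined group Spdef, Dll1, Rcor2 and Kit lie between Control and the Notch-only arrays, and Ascl2 overlaps Control.

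Folding and division genes were called in the Notch-only group and not in the combined group. None of 30 unfolded protein response genes was called (median -0.11, and 0.07 without combined array 1). In the Notch-only group 15 were called higher (median 0.54), where 6.57% of all features were. Hspa5, the chaperone BiP, changed by -0.41 ± 0.28 (adjusted p = 0.555). None of 37 DNA replication genes and none of 26 mitosis genes was called, against 24 and 16 called lower in the Notch-only group. Over all features, 0.155% were called lower in the combined group and 5.15% in the Notch-only group, so none of 37 or 26 in the combined group is near the share over all features. The medians of the replication and mitosis lists were 0.25 and 0.21 in the combined group and -0.51 and -0.43 in the Notch-only group. In the combined group 35 of 37 and 25 of 26 genes were above 0, while 11040 of all 23939 features were below 0. Pcna, the polymerase clamp, changed by 0.02 ± 0.16, and Pbk, a mitotic kinase, by 0.51 ± 0.22 (adjusted p = 0.344). The mean of the replication list was -1.13 ± 0.17 (SD, n = 5) on the Control arrays and -0.87 ± 0.19 (SD, n = 5) on the combined arrays, and the arrays of the groups overlapped.

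**Figure D3:**
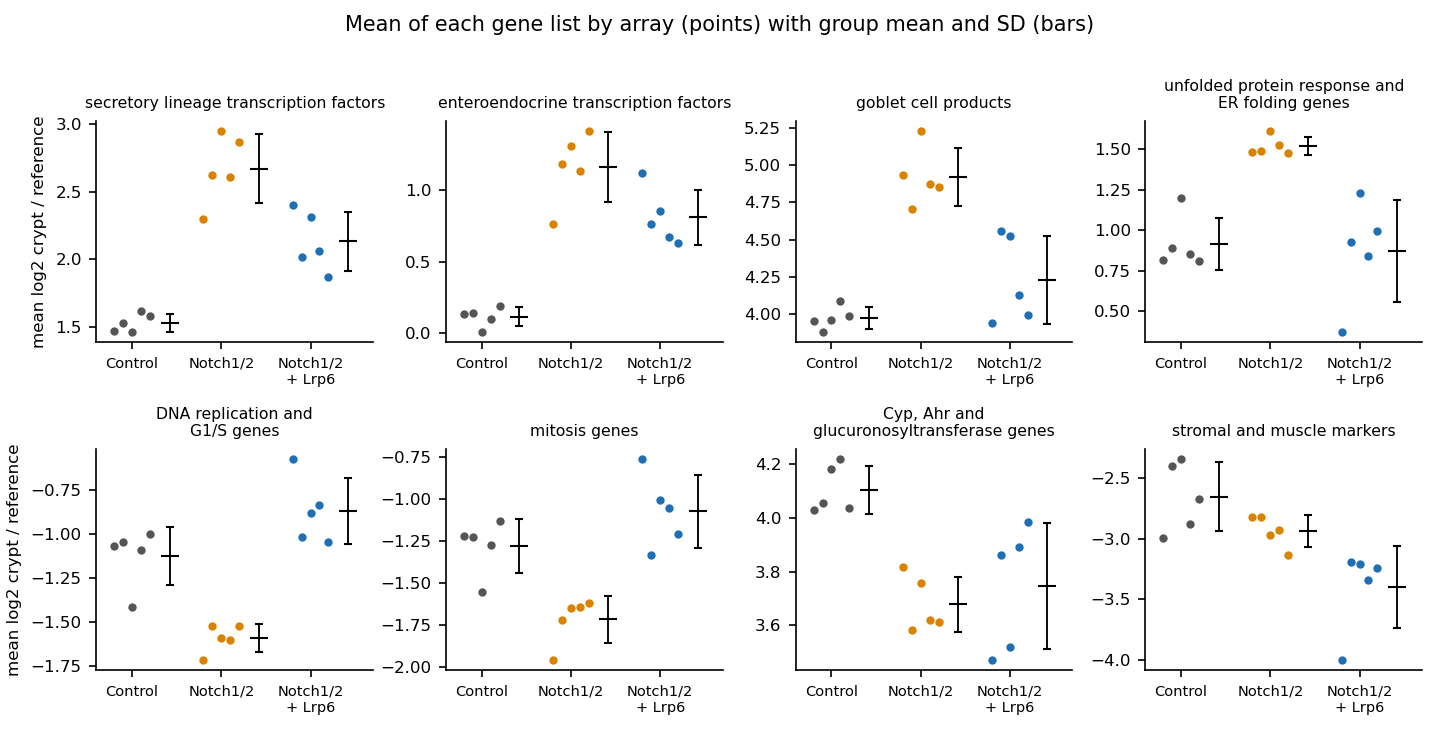
Mean log2 of crypt over reference (y axis) over the tested members of 8 gene lists on each array, with the group mean and SD as a bar. The secretory and enteroendocrine factors stay above Control in the combined group, while the goblet, folding, replication and mitosis lists overlap Control.

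Lgr5, the receptor for R-spondins that marks crypt base stem cells and is itself a Wnt target, was called lower in the combined group and not in the Notch-only group. It was at 2.39, 2.64, 2.37, 2.83 and 2.97 on the Control arrays, at 1.29, 2.18, 2.73, 1.84 and 2.41 on the Notch-only arrays and at 1.65, 0.89, 1.95, 1.49 and 1.16 on the combined arrays. Every combined array was below every Control array, and the Notch-only arrays overlapped both groups. The change was -1.21 ± 0.24 (adjusted p = 0.0461), a 2.31-fold lower level, and the Notch-only change was -0.55 ± 0.24 (adjusted p = 0.164). The difference between the treated groups did not pass (-0.66 ± 0.24, adjusted p = 0.0787), so the fall was not shown to be particular to the combined treatment. The Lgr5 call held in 2 of 10 fits, those without Control array 1 or combined array 5. In the other 8 the adjusted p reached 0.129, with log2 changes over all 10 from -1.34 to -1.07.

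The other stem cell genes did not follow Lgr5. Of the 22 crypt base stem cell genes tested, Lgr5 was called lower and Phlda1 higher, and the median was -0.01. Ascl2, a Wnt-driven factor of stem cell fate, was at 2.93, 3.13, 2.46, 3.29 and 3.47 in Control and at 3.62, 2.67, 3.02, 2.94 and 2.37 in the combined group, overlapping throughout. Its change was -0.13 ± 0.24 (adjusted p = 0.857), after -1.45 ± 0.24 in the Notch-only group, and the treated groups differed by 1.32 ± 0.24 (adjusted p = 0.00263). Axin2, a feedback target of Wnt signalling, changed by -0.25 ± 0.22 (adjusted p = 0.679), and Lrp6 itself by 0.00 ± 0.17 (adjusted p = 0.997). For both genes another probe had the opposite sign. An antibody blocks the protein, so the Lrp6 level does not check the treatment. Phlda1, a pleckstrin-homology protein found in stem cells, rose by 0.92 ± 0.17 (adjusted p = 0.0356), but combined array 5 equalled Control array 1 at -2.12, and the call held only without Control array 1 or combined array 5. Of 21 Wnt targets Lgr5 alone was called. None of 26 Wnt ligands, R-spondins and receptors was. Olfm4 was not tested.

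Of 14 intestinal iron handling genes, a list made after these calls were seen, 4 were called lower in the combined group, and each of the 4 was also called lower in the Notch-only group. Over all features, 0.155% were called lower in the combined group and 5.15% in the Notch-only group. Slc40a1 encodes ferroportin, which exports iron from enterocytes to the blood. It was at 4.20, 3.75, 3.67, 4.00 and 3.73 in Control, at 2.50, 2.77, 2.86, 3.25 and 1.64 in the Notch-only group and at 1.49, 1.96, 2.72, 2.62 and 2.80 in the combined group. Control stood clear of both treated groups, and the combined change was -1.56 ± 0.28 (adjusted p = 0.0278) against -1.27 ± 0.28. Cybrd1, the ferric reductase of the brush border, was at 3.69, 2.46, 1.98, 3.38 and 2.56 in Control and at 0.49, 1.01, 1.69, 1.09 and 1.83 in the combined group. Combined array 5 and Control array 3 lay close together, and the change was -1.59 ± 0.32 (adjusted p = 0.0461). Ncoa4, the receptor that delivers ferritin for breakdown, changed by -1.18 ± 0.23 (adjusted p = 0.0432) and Fth1, the ferritin heavy chain, by -0.59 ± 0.12 (adjusted p = 0.0461). None of these 4 differed between the treated groups past the threshold. The other 10 were not called, 3 of the 14 had changes above 0, and the list median was -0.25. Between the treated groups 3 others of the list differed, 2 higher and 1 lower in the combined group. The calls of Slc40a1 and Cybrd1 held in 2 of 10 fits and those of Ncoa4 and Fth1 in 1. All held without combined array 5, Slc40a1 also without Control array 1 and Cybrd1 without Control array 3, and the largest adjusted p among the 4 genes was 0.121.

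Akp3 and Foxq1 were also lower in both treated groups. Akp3, an intestinal alkaline phosphatase, was at 3.20, 2.22, 1.98, 2.86 and 2.61 in Control and at 0.68, 0.28, 1.17, 1.07 and 1.93 in the combined group, narrowly without overlap. Its change was -1.55 ± 0.29 (adjusted p = 0.037) against -1.46 ± 0.29 in the Notch-only group. It was the only 1 of 32 enterocyte genes called in the combined group, where the list median was -0.06, and Fabp1 changed by -0.05 ± 0.19. The Akp3 call held without Control array 3 or combined array 5 and was lost without any other array (adjusted p up to 0.106). Foxq1, a forkhead factor, was at 1.40, 0.99, 0.91, 1.27 and 1.15 in Control and at 0.25, 0.11, 0.34, 0.43 and 0.55 in the combined group. The groups were well apart, the change was -0.81 ± 0.13 (adjusted p = 0.0104), and the Notch-only change was -0.85 ± 0.13. Pcdh8, a protocadherin, was not well above background on any combined array, with measured means of 0.92 ± 0.12 (SD, n = 5) in Control and 0.22 ± 0.13 (SD, n = 5) in the combined group (adjusted p = 0.00296). Nr2e3, an orphan nuclear receptor, was likewise not well above background there, at 0.70 ± 0.16 (SD, n = 5) in Control and 0.12 ± 0.05 (SD, n = 5) in the combined group (adjusted p = 0.00486). These 2 entered the fit through the Control arrays alone, so their calls are a description.

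Rbp7, a cellular retinol-binding protein, was the gene of the 29 that was called nearer to Control in the combined group than in the Notch-only group. It was at 5.39, 5.24, 4.91, 5.27 and 5.36 in Control, at 1.90, 1.84, 2.03, 1.81 and 2.66 in the Notch-only group and at 4.72, 4.12, 4.08, 4.47 and 4.27 in the combined group. The 3 groups were fully separate. The combined change was -0.90 ± 0.16 (adjusted p = 0.0277), the Notch-only change -3.19 ± 0.16, and the treated groups differed by 2.29 ± 0.16 (adjusted p = 7.31e-06). The call against Control held in 4 of 10 fits, those without Control array 1 or 3 or combined array 1 or 5. Aldh1a3, which makes retinoic acid, changed by -1.03 ± 0.18 (adjusted p = 0.0258) and by -1.02 ± 0.18 in the Notch-only group. Its call held in 4 of 10 fits, those without Control array 1 or combined array 1, 3 or 5. These were the 2 called among 20 retinoid handling genes, with a median of -0.06, where 0.155% of all features were called lower.

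Among 32 genes of the Cyp, aryl hydrocarbon receptor and glucuronosyltransferase list, 30 were below 0, as were 11040 of all 23939 features. The list median was -0.33, and 1 gene was called. That was Ahr, the receptor itself, at -1.23, -1.08, -1.13, -1.06 and -1.02 in Control and at -1.43, -1.90, -1.80, -1.49 and -1.46 in the combined group. The groups did not overlap (-0.51 ± 0.10, adjusted p = 0.0484), and the call held in 2 of 10 fits, those without Control array 1 or combined array 5. Cyp1a1, its best known target, changed by -1.35 ± 0.46 (adjusted p = 0.243) in the combined group and by -1.75 ± 0.46 (adjusted p = 0.0239) in the Notch-only group. The list mean was 4.11 ± 0.09 (SD, n = 5) in Control and 3.74 ± 0.23 (SD, n = 5) in the combined group.

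**Figure D4:**
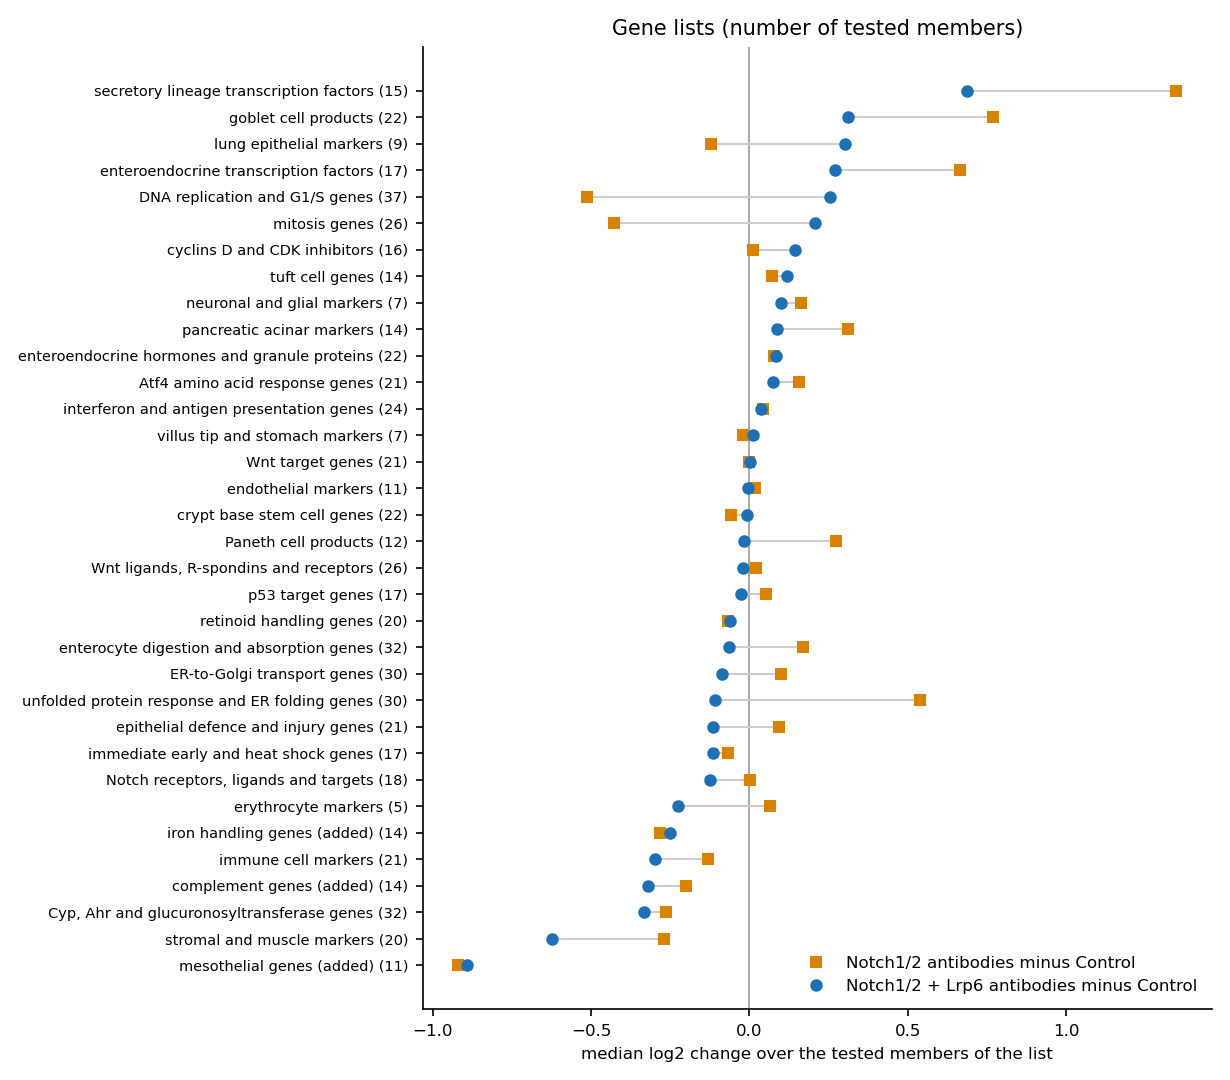
Median log2 change against Control (x axis) over the tested members of each gene list (y axis, number tested in brackets), in the Notch-only group (squares) and the combined group (circles). The secretory factors stand highest in both, and the replication and mitosis medians move from below 0 to above 0. The mesothelial and stromal lists are lowest in the combined group. The mesothelial, iron and complement lists were made after the calls were seen, so their places are a description.

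Some complement and mesothelial genes were also called lower, and their Control arrays varied widely. C3, the central complement component, was at -1.88, -0.07, -0.02, -0.87 and 0.30 in Control and at -2.94, -3.01, -1.78, -2.53 and -2.73 in the combined group. Control array 1 lay below combined array 3, so the groups overlapped, and the change was -2.09 ± 0.37 (adjusted p = 0.0244). C1s1, a classical-pathway protease, was at -4.22, -3.55, -3.44, -3.96 and -3.33 in Control and at -5.38, -4.81, -4.61, -4.94 and -4.61 in the combined group, without overlap (-1.17 ± 0.18, adjusted p = 0.00821). Msln, a surface protein of the mesothelium that lines the outside of the gut, was at -4.33, -2.65, -3.41, -3.88 and -2.48 in Control and at -5.14, -4.73, -4.46, -5.04 and -4.73 in the combined group. Its change was -1.47 ± 0.30 (adjusted p = 0.0461), and Wt1, a mesothelial transcription factor, changed by -1.20 ± 0.24 (adjusted p = 0.0461) with 2 of 5 combined arrays well above background. For C3, Msln and Wt1 alike, Control arrays 2 and 5 were high and Control array 1 was the lowest. The C3 call was lost without Control array 2, 3 or 5 or combined array 1, 2 or 4 (adjusted p up to 0.0794), and the calls of Msln and Wt1 held only without Control array 1 or combined array 5 (otherwise up to 0.138). Slpi, a protease inhibitor, was also called lower, at -1.25 ± 0.25.

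Lists of 14 complement and 11 mesothelial genes, made after these calls were seen, each had 3 called lower, where 0.155% of all features were. In the mesothelial list 1 was called higher, the keratin gene Krt7 (0.87 ± 0.16). The mean of the mesothelial list ranged from -1.20 to -0.01 over the Control arrays, from -1.60 to -1.24 over the Notch-only arrays and from -1.51 to -1.29 over the combined arrays. The crypts were bulk preparations, in which fewer cells of a type and less RNA per cell cannot be told apart. Whether the amount of attached tissue moved these genes was not tested.

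Of 20 stromal and muscle genes tested, 19 were below 0 in the combined group with a median of -0.63, and 3 were called lower, Actg2, Col3a1 and Col1a1. Over all features, 11040 of 23939 were below 0 and 0.155% were called lower. The mean of this list ranged from -2.99 to -2.35 in Control, from -3.13 to -2.82 in the Notch-only group and from -4.00 to -3.20 in the combined group. Actg2, the smooth muscle actin of the gut wall, was at -1.60, -0.76, -0.79, -1.12 and -1.48 in Control and at -3.96, -2.27, -2.24, -2.17 and -2.32 in the combined group, where array 1 stood far below the others. Its change was -1.44 ± 0.28 (adjusted p = 0.0434), and it was also lower than in the Notch-only group (-0.90 ± 0.28, adjusted p = 0.041). Without combined array 1 the Actg2 change was the smallest of the 10 fits, -1.10, and the call was kept, as it was without Control array 1 or combined array 5, while it was lost without any other array (adjusted p up to 0.131). Col1a1 and Col3a1, fibrillar collagens, changed by -1.15 ± 0.22 (adjusted p = 0.0356) and by -1.31 ± 0.26 (adjusted p = 0.0434). Actg2, Col1a1, Tpm2 and Cavin1 were the 4 named genes called lower against both Control and the Notch-only group, with no call between those 2 groups. Features with such calls, higher or lower, are said here to arise with the Lrp6 antibody, a term for the calls alone. All 4 were already below Control in the Notch-only group, with changes of -0.55, -0.36, -0.43 and -0.41, and Tpm2 did not overlap Control there. The calls against Control held in 3 of 10 fits for Col1a1, 6 for Tpm2 and 5 for Cavin1. None of 11 endothelial markers was called (median -0.01). None of the 21 tested immune markers of the list was called (median -0.30). Outside the list Aif1, a macrophage gene, was called lower (-0.82, adjusted p = 0.0242), and its call held in 3 of 10 fits.

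On the higher side, 3 named genes were called against both other groups, Sftpc, Sftpa1 and H2ac11. Sftpc and Sftpa1 encode surfactant proteins, products of the lung alveolus. Sftpc was at 2.14, 1.24, 2.22, 0.07 and 0.32 in Control, at 0.08, 0.20, 0.05 and 0.06 on Notch-only arrays 1, 2, 4 and 5, with array 3 left out for a flagged spot, and at 6.08, 7.04, 5.15, 5.31 and 3.63 in the combined group. Every combined array was above all others, by 4.24 ± 0.54 against Control (adjusted p = 0.00353). Sftpa1 was well above background on all 5 combined arrays and on no other array, with measured means of 0.20 ± 0.16 (SD, n = 5) in Control and 1.91 ± 0.70 (SD, n = 5) in the combined group. It entered the fit through the combined arrays alone, so its call (adjusted p = 0.00486) is a description. Of the other 8 tested lung epithelial markers Sftpc was called, and their median change was 0.26. Sftpd, another surfactant protein, changed by 0.59 ± 0.15 (adjusted p = 0.124) and Scgb1a1, a club cell product, by 0.42 ± 0.10 (adjusted p = 0.0885). Sftpb was not tested. The mean of these 8 ranged from 0.21 to 0.57 over the Control arrays and from 0.76 to 1.30 over the combined arrays. Sftpc is 1 of the 8, so its large change enters this mean. Of all 9 tested lung markers, Sftpa1 among them, 5 were called higher in the combined than in the Notch-only group, where 9.44% of all features were. Whether lung RNA entered the samples was not tested. H2ac11, a histone gene of a family with near-identical copies, rose by 0.71 ± 0.13 (adjusted p = 0.0343) with overlapping groups, and its call held only without Control array 1 or combined array 5.

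**Figure D5:**
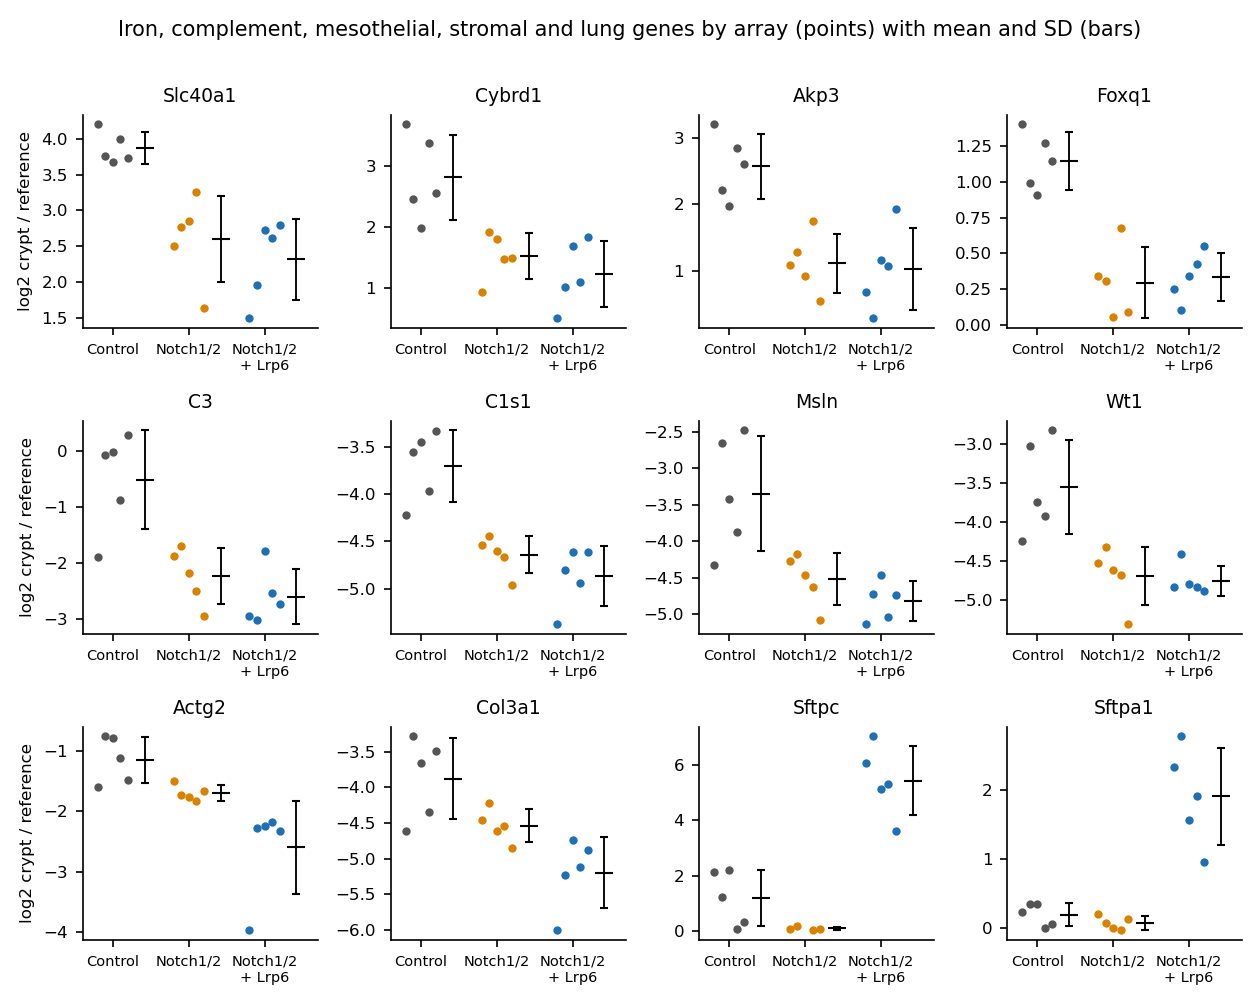
Log2 of crypt over reference (y axis) for 12 genes called lower or higher in the combined group (iron, complement, mesothelial, stromal and lung genes, with Akp3 and Foxq1) on each array of the 3 groups, with the group mean and SD as a bar. The iron genes are lower in both treated groups, C3, Msln and Wt1 are spread over the Control arrays, and Sftpc is above 3.6 on every combined array.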

How the data were processed

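Crypt RNA (Cy5, red) was hybridised against a common reference (Cy3, green) on 2-colour Agilent arrays without dye swaps, per the labels' protocols. The scanner files deposited by the authors give each spot's median intensity and background, and the software's log10 ratio (Feature Extraction 11.0.1.1, per the file headers). The authors' deposited log2 matrix was made with limma 3.6.7 in R 3.0.0, per the submitters' processing notes, and correlated with the values used here at 0.999981 or more on every array, with medians from 0.0144 to 0.0286. Its direction is red over green.

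Median intensities were corrected with normexp (offset 50) and normalized by loess within arrays in limma 3.58.1 (R 4.3.3), with control spots at weight 0 and flagged spots left out (306 to 642 per array). Mean signals, which had been planned, were not used. A probe was kept where 4 or more of the 5 arrays of some group had it above background in red. The brightest probe stood for a gene. Names came from probe accessions through RefSeq GRCm38.p6 (26581 of 39429 probes), and probe positions, on another build, were not used. All 15 arrays entered 1 fit with eBayes and Benjamini-Hochberg adjustment, called at 0.05. On simulated data the step recovered 59 of 100 changes of 0.5 and 95 of 100 changes of 1 on the log2 scale, with 7 false calls. Recovery in the real contrast may be lower: 75 features differed from Control by at least 2-fold in the combined group, and 37 of them were called. A gene that was not called is therefore not shown to be unchanged.

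The members and gene lists were chosen with earlier results of these data known. Named genes were the 4 largest called in each list, 16 fixed marker genes, the 10 largest each way, the 10 largest each way called in both treated groups, and the 6 largest each way that reversed or arose with the Lrp6 antibody. Other genes were named as list members or because they kept their call, after their values were seen. The result of 1 called gene is not reported here, and that gene was left out of the added list it would belong to. Array number limits the precision.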

Additional observations from a re-analysis of the deposited data

Results flagged for a closer look

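In groups of 5 arrays, the highest or lowest array was compared with its nearest neighbour by Dixon's ratio. Of 235 groups tested, 16 passed the critical value of 0.71, and chance alone passes about 5%. Among genes called against Control, combined array 1 was far below the rest of its group for Actg2 (-3.96), Cavin2 (-6.80), Fstl1 (-7.09) and Tpm2 (-4.20), and its mean over the stromal and muscle markers was -4.00. The mean of the D cyclins and CDK inhibitors was highest on the same array, at -0.0248. Combined array 5 was the lowest of its group for Gfra3 (3.43) and Selenom (1.29), and combined array 2 the highest for Wt1 (-4.41). Control array 3 had the lowest mean over DNA replication genes (-1.41) and the highest over unfolded protein response genes (1.20), ER-to-Golgi transport genes (1.14) and endothelial markers (-0.0558), and the highest level of Hid1 (1.21), a gene of dense-core vesicle formation. Control array 1 was the lowest for Car3 (0.16), a carbonic anhydrase, and the highest for Slc37a2 (1.05), a sugar-phosphate transporter. Both of those genes were called lower in the combined group. What set these arrays apart was not tested.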

How the results depend on the processing

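All 90 calls kept their direction under every alternative in which they were tested, but the number called varied. Calls higher and lower, 53 and 37 in the report, were 53 and 85 with the scanner software's log ratio, 59 and 69 with a normexp offset of 16, 17 and 13 with median centring in place of loess, 40 and 16 with scale normalization, 41 and 22 with no filter on dim probes, 38 and 12 with the 10 arrays alone, 48 and 23 with 1 weight per group, 237 and 171 with array weights, 1745 and 1171 with slide as a random block (whose estimated correlation was negative, -0.182), 16 and 11 without combined arrays 1 and 2 together, and 1 and 1 with combined array 5 as the only treated array, which was assumed to vary like the other groups. The weights per group and the removal of this pair were chosen after seeing the data. The share of calls that were higher, 58.9% in the report, ranged from 38.4% to 77.8%. Calls higher and lower in both treated groups, 47 and 29, were 15 and 12 with median centring, 30 and 16 with scale normalization, 441 and 322 with the slide block, 148 and 119 with array weights, 14 and 10 without combined arrays 1 and 2, and 0 and 1 with combined array 5 alone (limma, 615 features at an unadjusted p under 0.05). Calls lower in both numbered 51 with the software's ratio, 50 with offset 16 and 17 with no filter. Reversed features, 1856, were 1221 with the software's ratio, 832 with median centring, 3358 with array weights and 204 with combined array 5 alone. Features that arose with the Lrp6 antibody, 8, were 23 with the software's ratio, 16 with offset 16, 2 with median centring, 4 with no filter, 1138 with the slide block, 93 with array weights, 4 with 1 weight per group, 3 without combined arrays 1 and 2, and 1 with combined array 5 alone. The cause of these differences was not tested.

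Leaving out 1 array at a time gave 19 to 232 higher and 6 to 116 lower calls, 17 to 121 higher and 5 to 65 lower in both treated groups, 1088 to 2388 reversed features and 2 to 116 that arose. The deposited matrix gave 86 calls, the mean over probes 85, the stricter filter 79 and Aquantile normalization 90, the last leaving log ratios as they were. With the replicate number as a block, 24 features were called higher and 20 lower, 22 and 12 in both treated groups. Same-numbered Control and combined arrays deviated from their group means with correlations of -0.257, -0.267, -0.0335, -0.0821 and 0.000476, and same-numbered Control and Notch-only arrays with 0.626, 0.282, -0.0106, 0.382 and 0.134. Not every pair was above 0.1 in either contrast, so the numbers were not taken to pair the arrays. Slide was confounded with treatment, and fewer spots were well above background on slide 5, which limits dim genes in the combined group.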
